A study of Homo sapiens with 59 samples.

Results

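Autophagy and lysosome genes were followed in Jurkat cells, a leukaemic T cell line of human origin and long established in culture, after 1 essential amino acid in their medium had been lowered. The list holds 43 genes chosen by function: 10 role groups that run from the kinases that start an autophagosome to the enzymes and proton pump of the lysosome. All 43 were found by name in each of the 7 deposited tables, which together name 34622 genes. RNA sequencing covered 59 libraries, all collected at day 3. The 7 restricted groups were labelled 25% histidine, 25% methionine, 25% phenylalanine and 25% tryptophan, and 25% isoleucine, 25% leucine and 25% valine for the branched-chain amino acids, with 5 libraries each. Histidine, methionine, phenylalanine and tryptophan each had a control of their own with 5 libraries, and isoleucine, leucine and valine shared a branched-chain control (BCAA control) of 4 libraries. The level of the amino acid in the control media is not stated in the labels, and whether the libraries within a group are separate cultures is not stated either, so p-values measure the spread between these libraries only.

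Autophagy encloses cytoplasm in a double membrane, the autophagosome, and delivers it to the lysosome, where acid hydrolases break it down and return amino acids to the cell. The ULK1 kinase complex starts the process, a lipid kinase complex around PIK3C3 and BECN1 marks the membrane, and a ubiquitin-like conjugation system attaches LC3 and GABARAP proteins to it, which receptors such as SQSTM1 use to bring in cargo. With amino acids at hand, the kinase mTORC1 on the lysosome holds the ULK1 complex and the transcription factors TFEB and TFE3 in check, mostly by phosphorylation, which mRNA levels do not show. TFEB and TFE3 bind short sequences in the promoters of many lysosomal and autophagy genes.

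The T cell label was checked first. Each of the 12 T cell markers reached a group mean of 10 normalised counts in every table. CD3E, among the highest, lay between 10605 and 20620 in every library, while CD28 went down to 8.6 and PTCRA to 10.1. That mark alone does not set T cells apart. It was also reached by 2 of 4 B cell markers in every table, with CD79A between 202 and 817. By table, 2 or 3 of 3 epithelial, 1 to 3 of 3 fibroblast and 0 or 1 of 4 myeloid markers reached it. Normalised counts, which are the unit of every level given here, summed to 14.9 to 20.5 M per library. Some libraries stood apart. The summed mRNA of 3 fibroblast markers was 6446 in histidine control 3, against 267 to 316 in the other histidine controls, and COL1A2 was 1736 there. It was 1960 in phenylalanine control 1 (310.2 to 344 in the other controls), 1130 in valine-restricted library 5 and up to 785 in BCAA control 4. Ribosomal protein mRNA was higher than in the rest of the group by 0.95 on the log2 scale in phenylalanine-restricted library 2, by 0.71 in phenylalanine control 1 and by 1.05 to 1.08 in BCAA control 1. Their part in the results was not tested, but each comparison was repeated without each library in turn. Of the 43 genes, ULK2, a kinase related to ULK1, and CTSL, a lysosomal protease, stayed under a mean of 10 in every table and were not tested. CTSL reached 57.7 in phenylalanine control 1 and ULK2 32.8 in histidine control 3, both libraries that were high in fibroblast markers. In such bulk libraries fewer cells of a type and less RNA per cell cannot be told apart.

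The share of the 41 tested genes that changed was close to the share of all genes in each of the 7 comparisons. Under histidine restriction 9 members rose and 2 fell, 26.8% of those tested, against 27.9% of all genes (15.6% higher and 12.3% lower). Methionine restriction gave 14 rises and 9 falls, 56.1% of members against 53.2% of all genes (27.8% higher and 25.4% lower). Tryptophan restriction gave 12 rises and 10 falls, 53.7% of members against 51.3% of all genes (23.6% higher and 27.7% lower). Under phenylalanine restriction 3 members rose and 1 fell (9.76% of members, against 10.2% of all genes, of which 4.11% higher and 6.09% lower). Under valine restriction 1 rose and 4 fell (12.2% of members, against 12.5% of all genes, 5.13% higher and 7.36% lower), and under leucine restriction 3 fell and 0 rose (7.32% of members, against 7.75% of all genes, 3.41% higher and 4.33% lower). No member was called under isoleucine restriction, where limma called 0 of all genes as well (0%). There the smallest adjusted p of a member was 0.797, and at an unadjusted p below 0.05 limma found 3 members and 872 genes, 5.25% of all genes. Calls here and below are an adjusted p below 0.05 by limma over all genes of a table, on log2(normalised count + 1), the scale of every fold change. The isoleucine, leucine and valine comparisons use the same control libraries, so their values are set side by side only.

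**Figure D1:**
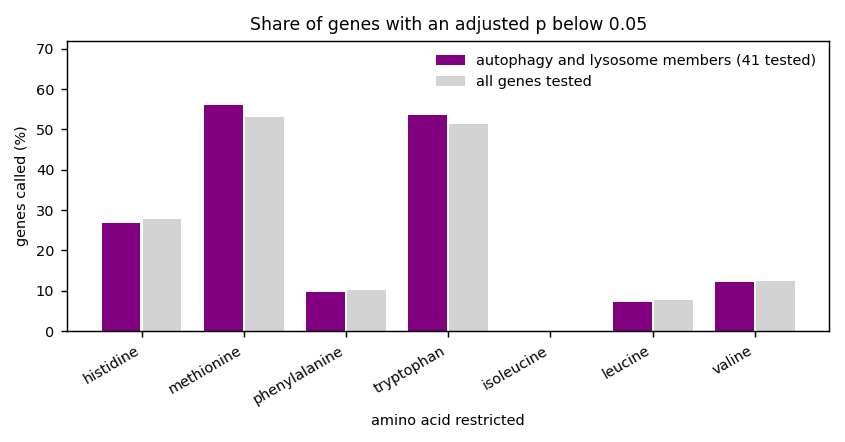
Share of genes called at an adjusted p below 0.05 for each restricted amino acid, for the 41 tested autophagy and lysosome genes (purple) and for all genes tested (grey), in percent. The paired bars lie close together, from 56.1% and 53.2% under methionine restriction to 0 and 0 under isoleucine restriction.

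The smaller counts changed when single libraries were left out, as did the number of all genes called. The phenylalanine count of 4 was 1 without control 3 and 2 without restricted library 1, 4 or 5 or control 2 or 5. Without both libraries high in ribosomal protein mRNA it was 10, with 3 higher and 7 lower, which is 24.4% of members against 26.5% of all genes in the same fit, an alternative chosen after seeing the data. The leucine count of 3 was 1 without restricted library 3 or 4 or BCAA control 5, 5 without restricted library 2 and 6 without BCAA control 4. The valine count of 5 was 1 without BCAA control 5, 2 without restricted library 1, 3 or 5 or BCAA control 3, 3 without restricted library 4 or BCAA control 4, and 8 without BCAA control 1. In each of these single-library fits the number of all genes called moved the same way as the members. For phenylalanine it went from 1736 to between 1103 and 1242. For leucine it went from 1277 to 511, 512 and 678 where the count fell, and to 1329 and 1450 where it rose. For valine it was 1110 without BCAA control 5 and 2657 without BCAA control 1, against 2096. Without histidine control 3 the histidine count stayed at 11, with 10 of the genes shared.

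The median absolute change of the members was below that of all genes tested in each comparison, with no matching on level. The median absolute log2 fold change of the members was 0.16 under histidine, 0.29 under methionine, 0.20 under phenylalanine, 0.33 under tryptophan, 0.10 under isoleucine, 0.17 under leucine and 0.24 under valine restriction. Over all genes tested it was 0.30, 0.49, 0.27, 0.40, 0.15, 0.26 and 0.31 in the same order. The signed median of the members lay between -0.09 under leucine and 0.12 under methionine restriction, and that of all genes between -0.01 under isoleucine and 0.03 under phenylalanine restriction. Only WIPI1, in the tryptophan, leucine and valine comparisons, and GLA, in the methionine and tryptophan comparisons, were called with a change of at least 2-fold. Libraries were also scaled to equal totals. That moved the median of all genes up by 0.13 under methionine, 0.12 under phenylalanine, 0.25 under tryptophan and 0.11 under valine restriction. The split of members became 24 higher and 7 lower for methionine, 7 and 0 for phenylalanine, 22 and 6 for tryptophan, and 3 and 3 for valine. Under that scaling the share of rises among all called genes was 62.6%, against 52.2% as deposited, for methionine, 67% against 40.3% for phenylalanine, 71% against 45.9% for tryptophan, 63.7% against 41.1% for valine and 63.7%, with 13 members higher and 2 lower, against 55.9% for histidine.

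Members did not move as a block. Over the 7 comparisons 15 were called higher only, 12 lower only and 8 in both directions. The remaining 6 were called in none: ATG9A, a lipid scramblase, ATG7 and ATG16L1 of the conjugation system, the LC3 relative GABARAP, the lysosomal beta-galactosidase GLB1 and the proton pump subunit ATP6V1A. WIPI1 and the protease CTSB were called in 4 comparisons, 4 genes in 3, 19 in 2 and 10 in 1. Of all genes, 53.2% were called under methionine and 51.3% under tryptophan restriction. The same tally was not made over all genes, so whether this spread is particular to the members was not tested. The map of fold changes shows most called rises in the histidine, methionine and tryptophan columns, where the share of all genes called was also largest. Called or not, 28 members were above 0 under histidine, 27 under methionine, 26 under phenylalanine and 21 under tryptophan restriction.

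**Figure D2:**
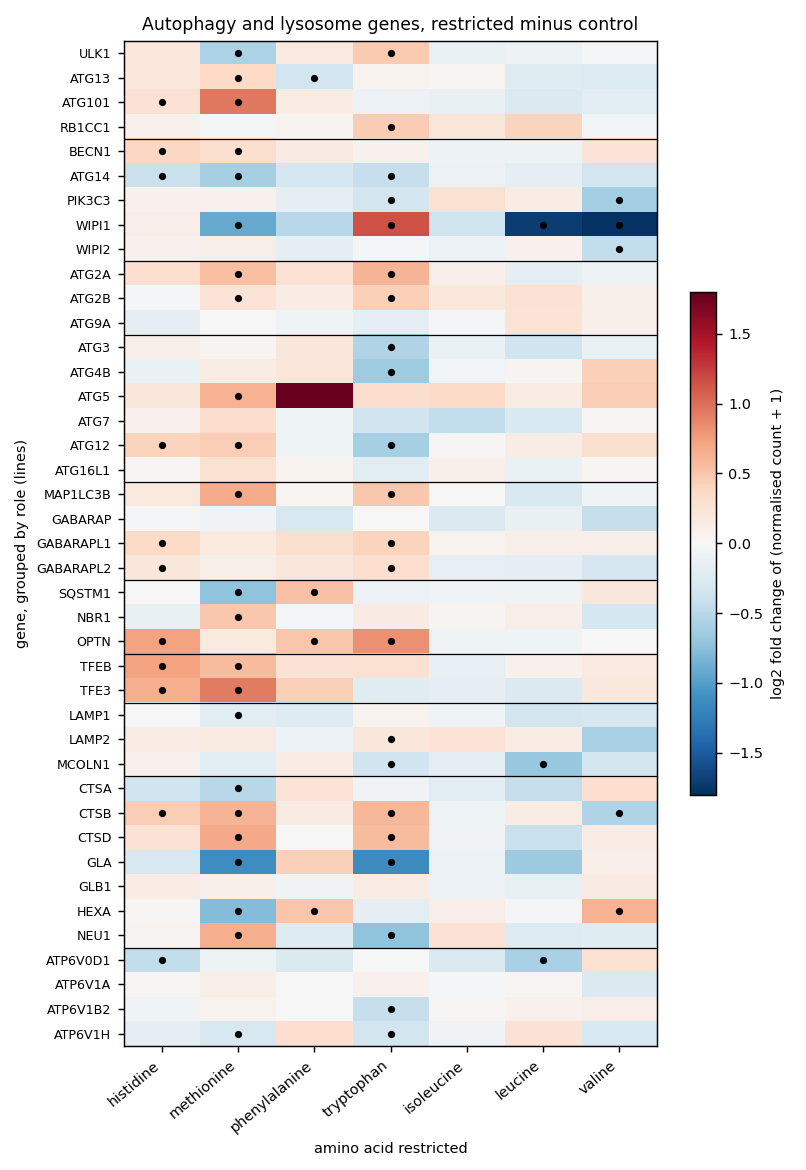
Log2 fold change of each of the 41 tested genes (rows, in role groups parted by lines) for each restricted amino acid against its control (columns). Red is higher and blue lower in restricted cells, and a dot marks an adjusted p below 0.05. The darkest cells are WIPI1, at -1.71 under leucine and -1.77 under valine restriction, and ATG5 under phenylalanine restriction, which was not called.

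TFEB and TFE3, the transcription factors that switch on lysosomal genes, both rose under histidine and under methionine restriction. TFEB had 282, 296, 336, 289 and 278 normalised counts in the histidine-restricted libraries, against 136, 179, 246, 186 and 161 in their control libraries (log2 fold change 0.73 with SE 0.14, adjusted p = 0.00204). Every restricted library lay above every control. TFE3 had 896, 715, 769.7, 943 and 891 normalised counts in the histidine-restricted libraries, against 359.6, 631, 632, 622 and 476 in their control libraries (log2 fold change 0.66 with SE 0.15, adjusted p = 0.00507), again with no overlap. Under methionine restriction TFEB had 262, 263, 215, 251 and 203 normalised counts in the methionine-restricted libraries, against 146, 148, 168, 167 and 169 in their control libraries (log2 fold change 0.57 with SE 0.12, adjusted p = 0.00125). TFE3 had 879, 1036, 882, 1144 and 941 normalised counts in the methionine-restricted libraries, against 543, 524, 476, 508 and 481 in their control libraries (log2 fold change 0.94 with SE 0.09, adjusted p = 9.49e-07). Its lowest restricted library, at 879, lay far above its highest control, at 543. Under tryptophan restriction neither was called, with log2 fold changes of 0.28 for TFEB (adjusted p = 0.159) and -0.21 for TFE3 (adjusted p = 0.0508). The TFE3 response under methionine restriction exceeded that under tryptophan restriction by 1.15, SE 0.12, adjusted p = 5.44e-08 in the test of the difference. Under phenylalanine restriction the values were 0.26 for TFEB (adjusted p = 0.25) and 0.43 for TFE3 (adjusted p = 0.109). With libraries scaled to equal totals, 1 of the 2 genes was called higher under tryptophan restriction and 1 under phenylalanine restriction. Of all called genes, 71% and 67% were then higher. In the 3 branched-chain comparisons neither gene was called, at log2 fold changes between -0.26 and 0.18. TFE3 lay between 894 and 1095 in the tryptophan controls, and its highest control in the other tables, which were normalised separately, was 867.

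**Figure D3:**
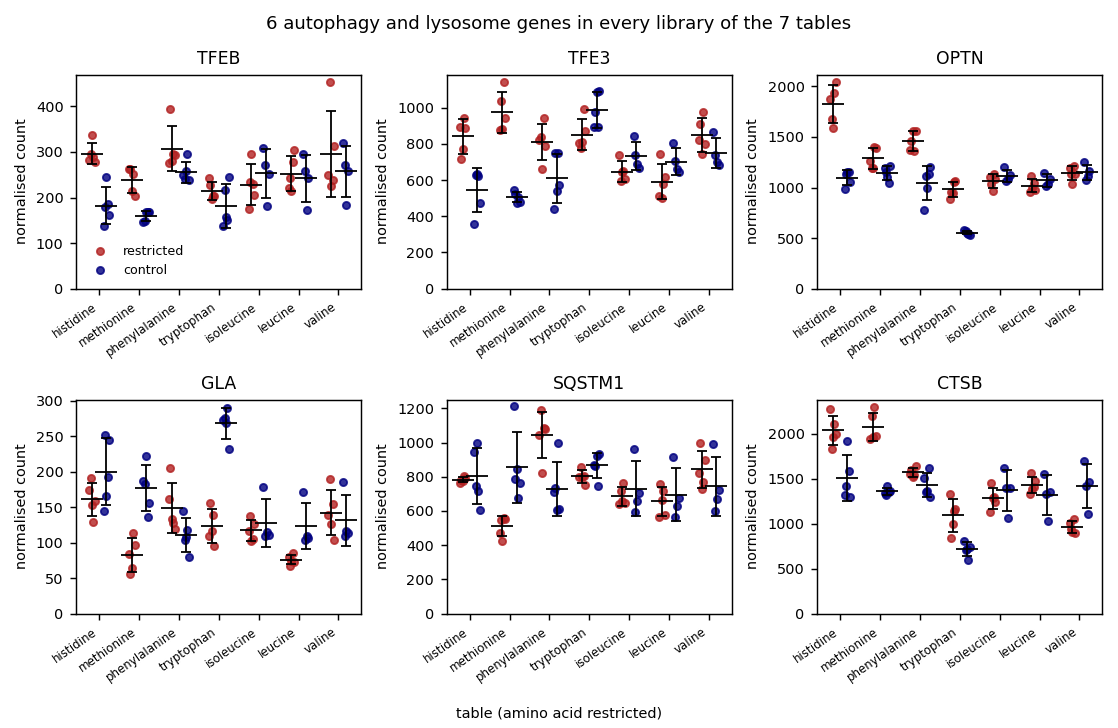
Normalised counts of TFEB, TFE3, OPTN, GLA, SQSTM1 and CTSB in every library of the 7 tables, with restricted libraries (red) left of controls (dark blue) and bars for the mean and SD. The TFE3 libraries do not overlap under histidine and methionine restriction, and the GLA libraries under methionine and tryptophan restriction lie below their controls.

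Partners that place these factors on the lysosome moved in part. Of 7 listed regulators, 6 were tested. Under methionine restriction 2 rose and 2 fell, under tryptophan restriction 1 rose and 1 fell, under histidine restriction 1 fell, and in the other 4 comparisons 0 were called. Of all genes, 53.2% were called under methionine, 51.3% under tryptophan and 27.9% under histidine restriction. RRAGD, a Rag GTPase of the amino acid sensing platform, had 793 ± 57.1 normalised counts in methionine-restricted libraries and 1397 ± 100.4 in their controls (SD, n = 5 each, log2 fold change -0.82 with SE 0.08, adjusted p = 8.94e-07). Its partner RRAGC had 1018 ± 60.7 normalised counts in methionine-restricted libraries and 654 ± 52.0 in their controls (SD, n = 5 each, log2 fold change 0.64 with SE 0.08, adjusted p = 1.1e-05), so the pair moved in opposite directions. RRAGD also fell under histidine restriction (log2 fold change -0.20 with SE 0.07, adjusted p = 0.0444) and tryptophan restriction (log2 fold change -0.25 with SE 0.07, adjusted p = 0.00694), and both of those calls were lost under equal totals.

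TFEB and TFE3 recognise the CLEAR element, which has an E-box, CACGTG, at its core. RefSeq promoters (GRCh38.p14, 250 bases before to 50 after a start site) were matched by symbol for 36 of the 43 members, and both strands were searched. The core CACGTG was found in 8 members and in 7.26% of 35116 promoters in the table. The form TCACGTGA, which contains the core, was found in 5 members and 0.98% of promoters, and the full CLEAR palindrome, in which that form has a G before it and a C after it, in MCOLN1 alone among the members and in 0.353% of promoters. TGATGNAA, the element bound by ATF4, was found in 0 members and 3.62% of promoters. The stretches around the sites are shown because these are the members with the letters the 2 factors bind. Capitals mark the motif, each is read along the gene's own strand, and for a gene with several sites the longest match nearest the start is given.
MCOLN1, chr19:7522590-7522635, plus strand: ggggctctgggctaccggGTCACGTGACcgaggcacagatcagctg
CTSA, chr20:45891290-45891335, plus strand: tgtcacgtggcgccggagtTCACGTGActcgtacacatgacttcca
LAMP1, chr13:113297218-113297263, plus strand: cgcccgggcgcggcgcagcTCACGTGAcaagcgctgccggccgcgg
ATP6V0D1, chr16:67481191-67481236, minus strand: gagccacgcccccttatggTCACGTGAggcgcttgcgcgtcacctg
ATG3, chr3:112561932-112561977, minus strand: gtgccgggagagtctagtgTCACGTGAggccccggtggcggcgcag
CTSD, chr11:1763949-1763994, minus strand: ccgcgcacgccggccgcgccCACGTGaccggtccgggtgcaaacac
NEU1, chr6:31862922-31862967, minus strand: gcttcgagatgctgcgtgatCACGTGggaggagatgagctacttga
ATG14, chr14:55411826-55411871, minus strand: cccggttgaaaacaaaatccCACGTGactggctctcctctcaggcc

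The 8 genes with an E-box were not called in a single direction, and their counts are to be read against the shares of all genes called, 27.9% under histidine, 53.2% under methionine, 51.3% under tryptophan and 7.75% under leucine restriction. Under histidine restriction 0 of the 8 rose and 2 fell. Under methionine restriction 2 rose (CTSD and NEU1) and 3 fell (ATG14, LAMP1 and CTSA). Under tryptophan restriction 1 rose (CTSD) and 4 fell (ATG14, ATG3, MCOLN1 and NEU1), and under leucine restriction 2 fell (MCOLN1 and ATP6V0D1). In the phenylalanine, isoleucine and valine comparisons 0 were called. A match of letters is a description and not a measured site.

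Calls among the initiation complex differed by member and amino acid, and its kinase ULK1 fell under methionine and rose under tryptophan restriction. Of its 4 tested members, 1 rose under histidine restriction, 2 rose and 1 fell under methionine restriction, 2 rose under tryptophan restriction, 1 fell under phenylalanine restriction and 0 were called for the branched-chain amino acids. Of all genes, 53.2% were called under methionine and 51.3% under tryptophan restriction. ULK1, the kinase that starts autophagy, had 1647, 1646, 1670.5, 1694 and 1482 normalised counts in the methionine-restricted libraries, against 2194, 2537, 2069, 2989.8 and 2435 in their control libraries (log2 fold change -0.58 with SE 0.09, adjusted p = 0.000111). All restricted libraries lay below all controls. Under tryptophan restriction ULK1 had 2716, 2494, 2610.3, 2912 and 2293 normalised counts in the tryptophan-restricted libraries, against 1522, 1994, 2080.1, 1690.5 and 2151 in their control libraries (log2 fold change 0.47 with SE 0.10, adjusted p = 0.000896), with all restricted libraries above all controls. The responses differed by -1.05, SE 0.14, adjusted p = 1.29e-06, methionine minus tryptophan. In the histidine, phenylalanine, isoleucine, leucine and valine comparisons ULK1 was not called, at log2 fold changes between -0.12 and 0.19.

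ATG101, a scaffold of the ULK1 complex, showed the largest rise of any member under methionine restriction. It had 1625, 1482, 1351, 1558 and 1738 normalised counts in the methionine-restricted libraries, against 837, 810.4, 775, 746 and 819.9 in their control libraries (log2 fold change 0.95 with SE 0.08, adjusted p = 2.06e-07). The lowest restricted library lay far above the highest control. It also rose under histidine restriction, to 953 ± 62.6 normalised counts in histidine-restricted libraries and 795 ± 48.7 in their controls (SD, n = 5 each, log2 fold change 0.26 with SE 0.07, adjusted p = 0.0175), a call lost without restricted library 1. The annotation places a gene on the opposite strand that shares 41.6% of the 31-base words in the principal ATG101 transcript. Reads from the 2 may not be told apart. ATG13, which links ULK1 to its scaffold, rose under methionine restriction (log2 fold change 0.36 with SE 0.07, adjusted p = 0.000597). Under phenylalanine restriction ATG13 had 2618, 2398, 2889, 2724 and 2898 normalised counts in the phenylalanine-restricted libraries, against 3195, 3576, 3397, 3566 and 3385 in their control libraries (log2 fold change -0.34 with SE 0.08, adjusted p = 0.0227), with no overlap. That fall was lost without restricted library 1 or 4, without control 2, 3 or 5, with no filter and under equal totals (adjusted p up to 0.144 over all alternatives). RB1CC1, the large scaffold of the complex, rose under tryptophan restriction (log2 fold change 0.46 with SE 0.10, adjusted p = 0.000982).

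In the lipid kinase complex, the core subunit BECN1 and the autophagy-specific subunit ATG14 moved apart. BECN1 had 2226 ± 91.5 normalised counts in histidine-restricted libraries and 1726 ± 87.5 in their controls (SD, n = 5 each, log2 fold change 0.37 with SE 0.06, adjusted p = 0.000598), and it rose under methionine restriction too (log2 fold change 0.29 with SE 0.07, adjusted p = 0.00483). ATG14 had 237, 201, 166, 177 and 249 normalised counts in the histidine-restricted libraries, against 301, 257, 265, 264 and 265 in their control libraries (log2 fold change -0.41 with SE 0.13, adjusted p = 0.0297). Its libraries did not overlap, but the call was lost without restricted library 2, 3 or 4 or control 1 (adjusted p up to 0.0749). ATG14 also fell under methionine restriction (log2 fold change -0.60 with SE 0.15, adjusted p = 0.00344) and tryptophan restriction (log2 fold change -0.41 with SE 0.15, adjusted p = 0.0298), the tryptophan call being lost without restricted library 4 or control 1, 2 or 4 and also under equal totals. The catalytic subunit PIK3C3 had 534, 429, 565, 556 and 596 normalised counts in the valine-restricted libraries, against 614, 960.1, 752 and 989 in their branched-chain control libraries (log2 fold change -0.61 with SE 0.17, adjusted p = 0.0305). All restricted values lay below the lowest control, and the call was lost without restricted library 1, 3 or 4 or BCAA control 3 or 5 and under equal totals (adjusted p up to 0.109). PIK3C3 fell under tryptophan restriction as well (log2 fold change -0.33 with SE 0.10, adjusted p = 0.0114), though not under equal totals. WIPI2, a reader of the lipid that PIK3C3 makes, had 1692, 1869.9, 1704, 1736 and 1952 normalised counts in the valine-restricted libraries, against 3035, 2132, 2286 and 2401 in their branched-chain control libraries (log2 fold change -0.45 with SE 0.12, adjusted p = 0.033). Here too the groups did not overlap, and the call was lost with no filter and without restricted library 1, 3, 4 or 5 or BCAA control 4 or 5 (adjusted p up to 0.0862).

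WIPI1, the other reader of that lipid among the members, gave the largest called differences of the list, with a sign that depended on the amino acid. Under valine restriction it had 146, 145, 61.6, 136 and 98.0 normalised counts in the valine-restricted libraries, against 434, 375, 327 and 413 in their branched-chain control libraries (log2 fold change -1.77 with SE 0.25, adjusted p = 0.000761). Under leucine restriction it had 97.0, 118, 85.8, 141 and 117 normalised counts in the leucine-restricted libraries, against 403, 356, 308 and 388 in their branched-chain control libraries (log2 fold change -1.71 with SE 0.17, adjusted p = 0.000106). In both comparisons every restricted library lay below every control, and the restricted mean was 0.303 of the control mean under valine and 0.307 of it under leucine restriction. Under methionine restriction WIPI1 had 114, 139, 125, 121 and 126 normalised counts in the methionine-restricted libraries, against 304, 218, 202, 209.8 and 255 in their control libraries (log2 fold change -0.91 with SE 0.14, adjusted p = 8.45e-05). Under tryptophan restriction it had 149, 104, 132, 124 and 122 normalised counts in the tryptophan-restricted libraries, against 61.1, 51.8, 51.5, 63.7 and 54.9 in their control libraries (log2 fold change 1.14 with SE 0.15, adjusted p = 1.58e-05), a rise with no overlap. The tryptophan controls were the low group here. In the other separately normalised tables the lowest control was 195. The methionine and tryptophan responses differed by -2.05, SE 0.19, adjusted p = 6.89e-09.

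WIPI1 was not called in the remaining comparisons. Under isoleucine restriction it had 293, 276, 292, 329 and 282 normalised counts in the isoleucine-restricted libraries, against 422, 375, 322 and 404 in their branched-chain control libraries, where only restricted library 4 reached into the range of the controls (log2 fold change -0.37 with SE 0.12, adjusted p = 0.797). Under phenylalanine restriction it had 179, 249, 189, 217 and 190.0 normalised counts in the phenylalanine-restricted libraries, against 362, 279, 331, 245 and 243 in their control libraries (log2 fold change -0.50 with SE 0.15, adjusted p = 0.0581), and the groups overlapped. Under histidine restriction it had 251, 219, 236, 287 and 269 normalised counts in the histidine-restricted libraries, against 195, 217, 226, 257 and 269.5 in their control libraries (log2 fold change 0.12 with SE 0.12, adjusted p = 0.493). Each of the 4 WIPI1 calls was kept without any single library.

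**Figure D4:**
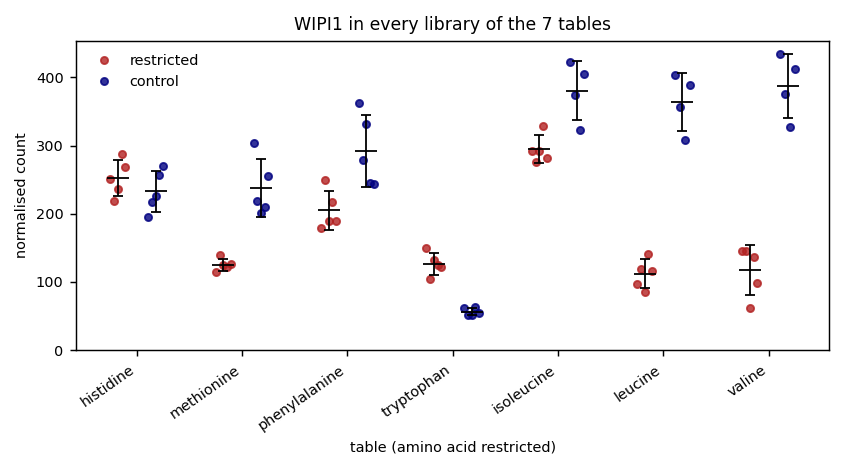
Normalised counts of WIPI1 in every library of the 7 tables, restricted libraries (red) left of controls (dark blue), with the mean and SD as bars. Restricted libraries lie below their controls under methionine, leucine and valine restriction and above them under tryptophan restriction, where the controls lie between 51.5 and 63.7.

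WIPI1 lies on the minus strand of chromosome 17 (GRCh38, chr17:68420948-68457513), and its exons overlap ARSG, a lysosomal sulfatase gene on the plus strand. ARSG shares 28.2% of the 31-base words of the principal WIPI1 transcript. The libraries were strand-specific, but no source used here gives the strand setting of the quantification. ARSG averaged 308 ± 40.6 normalised counts in tryptophan-restricted libraries and 108 ± 17.5 in their controls (SD, n = 5 each, log2 fold change 1.502, adjusted p = 4.78e-07), so both genes rose there. Under methionine restriction ARSG rose (log2 fold change 0.43, adjusted p = 0.00994) while WIPI1 fell. Under valine and leucine restriction ARSG was not called, at log2 fold changes of -0.04 (adjusted p = 0.912) and -0.45 (adjusted p = 0.0878). The part of shared reads in the WIPI1 values was not tested. The WIPI1 promoter is shown because the called WIPI1 differences are the largest of the list. It holds none of the 4 motifs searched.
WIPI1, chr17:68457447-68457746, minus strand: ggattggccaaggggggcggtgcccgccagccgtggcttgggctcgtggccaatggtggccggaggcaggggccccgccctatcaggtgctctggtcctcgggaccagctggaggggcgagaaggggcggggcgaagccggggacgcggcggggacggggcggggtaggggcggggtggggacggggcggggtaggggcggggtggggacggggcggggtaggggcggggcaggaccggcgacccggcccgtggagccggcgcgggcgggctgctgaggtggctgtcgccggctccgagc

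The lipid transfer proteins ATG2A and ATG2B, which feed lipid into the growing membrane, rose under methionine and tryptophan restriction. ATG2A had 1032, 948, 737, 936 and 762 normalised counts in the tryptophan-restricted libraries, against 451, 660.4, 585, 551 and 656 in their control libraries (log2 fold change 0.61 with SE 0.12, adjusted p = 0.000704). Restricted library 3, the lowest, still lay above the highest control. It rose under methionine restriction too (log2 fold change 0.54 with SE 0.13, adjusted p = 0.00228). ATG2B had 1179 ± 84.2 normalised counts in tryptophan-restricted libraries and 871 ± 45.6 in their controls (SD, n = 5 each, log2 fold change 0.44 with SE 0.07, adjusted p = 9.92e-05), and under methionine restriction its call (log2 fold change 0.25 with SE 0.09, adjusted p = 0.0376) was lost without restricted library 2, 3 or 5 or control 2, 3 or 5. Neither was called in the other 5 comparisons, and ATG9A was called in none.

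In the conjugation system, 3 of 6 tested members fell and 0 rose under tryptophan restriction, where 27.7% of all genes fell and 23.6% rose. Under methionine restriction 2 rose and 0 fell (27.8% and 25.4% of all genes), under histidine restriction 1 rose, and 0 were called in the other 4 comparisons. Under equal totals 6 rose under methionine restriction, and 3 fell and 1 rose under tryptophan restriction. Of all called genes, 62.6% and 71% were then higher. ATG4B, the protease that primes and recycles LC3, had 1016, 933, 925, 1049 and 918 normalised counts in the tryptophan-restricted libraries, against 1507, 1556, 1439, 1435 and 1575 in their control libraries (log2 fold change -0.63 with SE 0.06, adjusted p = 1.12e-06). ATG12, a ubiquitin-like protein joined to ATG5, had 754, 1045, 828.6, 816 and 892 normalised counts in the tryptophan-restricted libraries, against 1458, 1339.5, 1178, 1491 and 1077 in their control libraries (log2 fold change -0.59 with SE 0.10, adjusted p = 0.00029). In both genes every restricted library lay below every control. ATG3, which transfers LC3 to lipid, had 1661 ± 106 normalised counts in tryptophan-restricted libraries and 2415 ± 60.3 in their controls (SD, n = 5 each, log2 fold change -0.54 with SE 0.06, adjusted p = 2.26e-06).

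ATG12 went the other way under histidine restriction, where it had 762, 1043, 820.2, 899.9 and 924 normalised counts in the histidine-restricted libraries, against 684, 644, 587, 742 and 709 in their control libraries (log2 fold change 0.40 with SE 0.10, adjusted p = 0.00715), with no overlap. It rose under methionine restriction as well (log2 fold change 0.44 with SE 0.11, adjusted p = 0.00476), and its response under histidine restriction exceeded that under tryptophan restriction by 0.99, SE 0.15, adjusted p = 9.83e-06. ATG5 rose under methionine restriction (log2 fold change 0.62 with SE 0.15, adjusted p = 0.00245). Its log2 fold change of 1.83 under phenylalanine restriction was not called (adjusted p = 0.412) and rests on phenylalanine control 1, in which ATG5 was listed at 0. ATG12 shares 15% of its 31-base words with other genes, mostly AP3S1 on the opposite strand.

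The mRNAs of the LC3 and GABARAP proteins, which coat the autophagosome, rose where they were called. Under tryptophan restriction 3 of 4 rose, under histidine restriction 2, under methionine restriction 1, and 0 fell in any comparison. Of all genes, 23.6% rose under tryptophan, 15.6% under histidine and 27.8% under methionine restriction. Under equal totals 3 of the 4 rose under each of these restrictions. Of all called genes, 71% were then higher under tryptophan, 63.7% under histidine and 62.6% under methionine restriction. MAP1LC3B, a widely used autophagosome marker, had 2072, 1771, 1795, 1928 and 1985 normalised counts in the methionine-restricted libraries, against 1181, 1176, 1316, 1127 and 1184 in their control libraries (log2 fold change 0.67 with SE 0.07, adjusted p = 2.1e-06). The lowest restricted library, library 2, lay above the highest control. Under tryptophan restriction it had 1326, 1547, 1619, 1429 and 1641 normalised counts in the tryptophan-restricted libraries, against 1276, 1000.3, 1119.7, 1134 and 909 in their control libraries (log2 fold change 0.48 with SE 0.09, adjusted p = 0.000547), where the groups again did not overlap. Under histidine restriction MAP1LC3B was not called (log2 fold change 0.18 with SE 0.08, adjusted p = 0.0987).

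GABARAPL1, of the GABARAP branch of the family, had 949, 1008, 929, 1123 and 1013 normalised counts in the histidine-restricted libraries, against 659.7, 823, 919, 853 and 695 in their control libraries (log2 fold change 0.35 with SE 0.10, adjusted p = 0.0154). Restricted library 3, at 929, lay just above control 3, at 919. It had 718, 860.0, 639, 761 and 809 normalised counts in the tryptophan-restricted libraries, against 501, 567, 574, 569.9 and 637 in their control libraries (log2 fold change 0.41 with SE 0.09, adjusted p = 0.00181). There the lowest restricted library was 639 and the highest control 637, so the groups only just separated. Under methionine restriction it was not called (log2 fold change 0.18 with SE 0.09, adjusted p = 0.124). GABARAPL2 rose under tryptophan restriction (log2 fold change 0.31 with SE 0.08, adjusted p = 0.00591) and under histidine restriction (log2 fold change 0.20 with SE 0.07, adjusted p = 0.0361), the histidine call being lost in 9 of 10 repeats that left out a library, all but that without control 5. In the phenylalanine and branched-chain comparisons the ATG8 members were not called. The leucine-restricted values of MAP1LC3B, 1224, 1239, 1231, 1184 and 1208 normalised counts in the leucine-restricted libraries, against 1597, 1354, 1601 and 1342 in their branched-chain control libraries, lay below all 4 controls (log2 fold change -0.27 with SE 0.09, adjusted p = 0.0929).

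Cargo receptors responded gene by gene. OPTN, a receptor for damaged mitochondria and bacteria, had 1871, 1677, 1592, 1939 and 2042 normalised counts in the histidine-restricted libraries, against 990.2, 1134, 1155, 1152 and 1058 in their control libraries (log2 fold change 0.73 with SE 0.08, adjusted p = 2.28e-05). Under tryptophan restriction it had 891, 959, 949, 1054 and 1066 normalised counts in the tryptophan-restricted libraries, against 576, 567, 555, 541 and 531 in their control libraries (log2 fold change 0.82 with SE 0.07, adjusted p = 2.36e-07). In both comparisons the restricted libraries lay well above all controls, and this is the smallest adjusted p of any member in each. Under phenylalanine restriction OPTN had 1372, 1464, 1555, 1357 and 1558 normalised counts in the phenylalanine-restricted libraries, against 777, 1111, 999.5, 1134 and 1200.3 in their control libraries (log2 fold change 0.50 with SE 0.12, adjusted p = 0.0217). That call was lost without restricted library 3 or 5 or control 3 (adjusted p up to 0.0615), though the groups did not overlap. Under methionine restriction OPTN was not called (log2 fold change 0.18 with SE 0.08, adjusted p = 0.0656), and its response there was lower than under tryptophan restriction by -0.65, SE 0.10, adjusted p = 6.26e-06, methionine minus tryptophan.

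SQSTM1, also named p62, the ubiquitin receptor that autophagy itself degrades, went in opposite directions. It had 471, 545, 427, 559 and 551 normalised counts in the methionine-restricted libraries, against 1212, 787, 845, 673 and 763 in their control libraries (log2 fold change -0.72 with SE 0.14, adjusted p = 0.000599). The highest restricted library, at 559, lay below the lowest control, at 673. Under phenylalanine restriction it had 1045, 1189, 824, 1085 and 1077 normalised counts in the phenylalanine-restricted libraries, against 708, 733, 605, 994 and 614 in their control libraries (log2 fold change 0.53 with SE 0.15, adjusted p = 0.0409). There control 4 lay within the range of the restricted libraries, and the call was lost with no filter and without restricted library 1, 2, 4 or 5 or control 2, 3 or 5 (adjusted p up to 0.101). The methionine and phenylalanine responses differed by -1.25, SE 0.21, adjusted p = 0.000152. Under histidine and tryptophan restriction SQSTM1 was not called, at -0.01 (adjusted p = 0.96) and -0.11 (adjusted p = 0.243). SQSTM1 shares 51.7% of its 31-base words with MRNIP on the opposite strand, which rose under methionine restriction (log2 fold change 0.50, adjusted p = 0.0279) and was not called under phenylalanine restriction (0.32, adjusted p = 0.230). NBR1, a receptor related to SQSTM1, had 3485 ± 301 normalised counts in methionine-restricted libraries and 2492 ± 228 in their controls (SD, n = 5 each, log2 fold change 0.48 with SE 0.08, adjusted p = 0.000146) and was called in no other comparison.

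Among lysosomal membrane proteins the changes were few. LAMP1, an abundant glycoprotein of the lysosomal membrane, had 1850.1, 2015, 1837, 2032 and 1974 normalised counts in the methionine-restricted libraries, against 2074, 2431, 2139.7, 2138 and 2390.3 in their control libraries (log2 fold change -0.20 with SE 0.07, adjusted p = 0.0216). The groups did not overlap, but the call was lost without restricted library 1 or 3 or control 2 or 5, and also under equal totals (adjusted p up to 0.301). In the phenylalanine, leucine and valine comparisons every restricted LAMP1 value lay below every control without a call, at log2 fold changes of -0.23 (adjusted p = 0.0791), -0.34 (0.0542) and -0.31 (0.0886). LAMP2, which chaperone-mediated autophagy needs, rose under tryptophan restriction (log2 fold change 0.21 with SE 0.06, adjusted p = 0.0118). MCOLN1, the calcium channel of the lysosome whose promoter carries the full CLEAR element, had 243, 259.8, 233, 223 and 283 normalised counts in the leucine-restricted libraries, against 523, 392, 313 and 394 in their branched-chain control libraries (log2 fold change -0.69 with SE 0.15, adjusted p = 0.0199). All restricted libraries lay below the lowest control, and the call was lost without restricted library 3 or 4 or BCAA control 5 (adjusted p up to 0.0579). MCOLN1 also fell under tryptophan restriction (log2 fold change -0.36 with SE 0.12, adjusted p = 0.0258), a call lost without restricted library 2 or control 3, and also under equal totals.

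The mRNAs of lysosomal enzymes included rises and falls within the same comparison. Of 7 tested, 3 rose and 3 fell under methionine restriction, 2 rose and 2 fell under tryptophan restriction, 1 rose under histidine restriction, 1 rose under phenylalanine restriction, and 1 rose and 1 fell under valine restriction. Of all genes, 27.8% rose and 25.4% fell under methionine, 23.6% and 27.7% under tryptophan, and 5.13% and 7.36% under valine restriction. The share of all genes that rose was 15.6% under histidine and 4.11% under phenylalanine restriction. CTSD, an aspartic protease, had 2967, 3016, 2900.3, 3112 and 2559.8 normalised counts in the methionine-restricted libraries, against 1662, 1862, 1701, 1978 and 1883 in their control libraries (log2 fold change 0.68 with SE 0.07, adjusted p = 3.02e-06). Under tryptophan restriction it had 2344, 1738, 1945, 2288 and 2080.0 normalised counts in the tryptophan-restricted libraries, against 1105, 1498, 1502, 1403 and 1496 in their control libraries (log2 fold change 0.57 with SE 0.10, adjusted p = 0.000265). The groups did not overlap in either comparison. The annotation lists a gene that shares 60.9% of the 31-base words of CTSD, so its reads may be divided.

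CTSB, a cysteine protease, rose under 3 restrictions and fell under 1. Under histidine restriction it had 2277, 1832, 1965, 2104 and 1999 normalised counts in the histidine-restricted libraries, against 1314, 1416, 1921, 1589 and 1296 in their control libraries (log2 fold change 0.45 with SE 0.10, adjusted p = 0.00589), with control 3 inside the range of the restricted libraries. Under methionine restriction it had 1940.4, 2197, 1967, 2294 and 1972 normalised counts in the methionine-restricted libraries, against 1339, 1317, 1419, 1355 and 1362 in their control libraries (log2 fold change 0.61 with SE 0.07, adjusted p = 3.9e-06), with all restricted libraries above all controls. Under tryptophan restriction it had 1326, 839, 992, 1145 and 1161 normalised counts in the tryptophan-restricted libraries, against 807, 713, 721, 594 and 739 in their control libraries (log2 fold change 0.60 with SE 0.11, adjusted p = 0.00054), again without overlap. Under valine restriction it had 1009, 943, 905, 1053 and 902 normalised counts in the valine-restricted libraries, against 1695, 1423, 1104 and 1461 in their branched-chain control libraries (log2 fold change -0.55 with SE 0.14, adjusted p = 0.0202). All restricted values lay below the lowest control, and the call was lost without restricted library 3 or 5 or BCAA control 3 or 5 (adjusted p up to 0.0686). Under leucine restriction, with the same control libraries, CTSB was at 0.13 (adjusted p = 0.522).

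The calls did not divide by enzyme class, since the protease CTSA and the glycosidases GLA and HEXA fell under methionine restriction, where the proteases CTSD and CTSB and the sialidase NEU1 rose. GLA, the alpha-galactosidase missing in Fabry disease, had 84.7, 55.7, 63.9, 114 and 96.3 normalised counts in the methionine-restricted libraries, against 187, 183, 222, 136 and 157 in their control libraries (log2 fold change -1.11 with SE 0.21, adjusted p = 0.000488). Under tryptophan restriction it had 109, 156, 117, 139 and 94.8 normalised counts in the tryptophan-restricted libraries, against 273, 276, 269, 289.9 and 232 in their control libraries (log2 fold change -1.13 with SE 0.14, adjusted p = 9.16e-06). Both sets of restricted libraries lay below their controls, with a mean at 0.468 of the control mean under methionine and 0.460 under tryptophan restriction. Under leucine restriction every GLA value lay below every control without a call (log2 fold change -0.66 with SE 0.19, adjusted p = 0.0585), and under phenylalanine restriction the log2 fold change was 0.42 (adjusted p = 0.221). HEXA, a subunit of beta-hexosaminidase, had 418, 278, 396, 465 and 349 normalised counts in the methionine-restricted libraries, against 481, 587, 812, 621 and 804 in their control libraries (log2 fold change -0.79 with SE 0.16, adjusted p = 0.000981).

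Under phenylalanine restriction HEXA had 943, 855, 910.1, 764 and 746 normalised counts in the phenylalanine-restricted libraries, against 678, 589, 507, 611 and 598 in their control libraries (log2 fold change 0.50 with SE 0.11, adjusted p = 0.0132), a rise with no overlap. The methionine and phenylalanine responses of HEXA differed by -1.28, SE 0.21, adjusted p = 7.75e-05. HEXA was called higher under valine restriction too (log2 fold change 0.62 with SE 0.17, adjusted p = 0.0287), where the groups overlapped and the call was lost without restricted library 1 or 5 or BCAA control 3, 4 or 5. NEU1, the lysosomal sialidase, had 149, 156, 183, 140.2 and 169 normalised counts in the tryptophan-restricted libraries, against 291, 274, 196, 294 and 273 in their control libraries (log2 fold change -0.72 with SE 0.13, adjusted p = 0.000315). Control 3, at 196, stood apart from the other controls but above every restricted library. Under methionine restriction NEU1 rose, with 432 ± 42.2 normalised counts in methionine-restricted libraries and 273 ± 16.6 in their controls (SD, n = 5 each, log2 fold change 0.66 with SE 0.10, adjusted p = 7.9e-05), and its 2 responses differed by 1.38, SE 0.16, adjusted p = 1.91e-07. CTSA, the protease that protects NEU1 in a shared complex, fell under methionine restriction (log2 fold change -0.50 with SE 0.14, adjusted p = 0.00691).

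Of 4 tested members that are subunits of the V-ATPase, the pump that acidifies the lysosome, 1 fell under histidine, 1 under methionine, 2 under tryptophan and 1 under leucine restriction, and 0 rose. Of all genes, 12.3% fell under histidine, 25.4% under methionine, 27.7% under tryptophan and 4.33% under leucine restriction. Under equal totals 1 rose and 0 fell under methionine restriction, 2 rose and 1 fell under tryptophan restriction, and 1 rose under phenylalanine restriction. Of all called genes, 62.6%, 71% and 67% were then higher in the same order. ATP6V0D1, which couples the membrane and cytosolic sectors, had 459.9, 404, 462, 379.8 and 399.7 normalised counts in the histidine-restricted libraries, against 548, 535, 629.8, 548 and 589 in their control libraries (log2 fold change -0.44 with SE 0.09, adjusted p = 0.0024). Under leucine restriction it had 419.8, 528, 451, 423 and 391 normalised counts in the leucine-restricted libraries, against 928, 539, 565 and 678 in their branched-chain control libraries (log2 fold change -0.59 with SE 0.16, adjusted p = 0.0434). Neither pair of groups overlapped. The leucine call was lost with no filter on low values and without restricted library 1, 3, 4 or 5 or BCAA control 5 (adjusted p up to 0.106). ATP6V1B2 fell under tryptophan restriction (log2 fold change -0.41 with SE 0.06, adjusted p = 2.62e-05), and ATP6V1H fell under tryptophan restriction (log2 fold change -0.34 with SE 0.10, adjusted p = 0.00938) and methionine restriction (log2 fold change -0.29 with SE 0.10, adjusted p = 0.0279), both ATP6V1H calls being lost under equal totals and the methionine call also without restricted library 1, 2 or 3 or control 2 or 3. The catalytic subunit ATP6V1A was called in none of the 7 comparisons, with log2 fold changes from -0.26 to 0.12.

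Differences between responses were tested for the 6 pairs among histidine, methionine, phenylalanine and tryptophan, which have separate controls. Methionine minus tryptophan gave 20 of 41 members, 48.8%, against 53.6% of all genes. Histidine minus tryptophan gave 16 (39% against 43.3%), methionine minus phenylalanine 14 (34.1% against 29.4%), phenylalanine minus tryptophan 14 (34.1% against 32.6%), histidine minus methionine 11 (26.8% against 34.4%) and histidine minus phenylalanine 3 (7.32% against 9.66%). The 3 were ATG13 (0.53, SE 0.10, adjusted p = 0.00179), WIPI1 (0.62, SE 0.19, adjusted p = 0.0446) and HEXA (-0.48, SE 0.13, adjusted p = 0.0194). The number was 5 without phenylalanine-restricted library 2 or phenylalanine control 4.

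Between methionine and tryptophan restriction, 4 members were called in opposite directions with a difference that passed the test: WIPI1, ULK1, NEU1 and ATG12. Among the 20 members whose responses differed, those with higher values for methionine include ATG101 at 1.06, ATG12 at 1.03, ATG4B at 0.77 and ATG3 at 0.59. WIPI1, ULK1 (of the initiation complex, like ATG101), OPTN and SQSTM1 lie on the other side, at -2.05, -1.05, -0.65 and -0.61. The plot of one response against the other shows GLA near the diagonal, at -1.11 and -1.13.

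**Figure D5:**
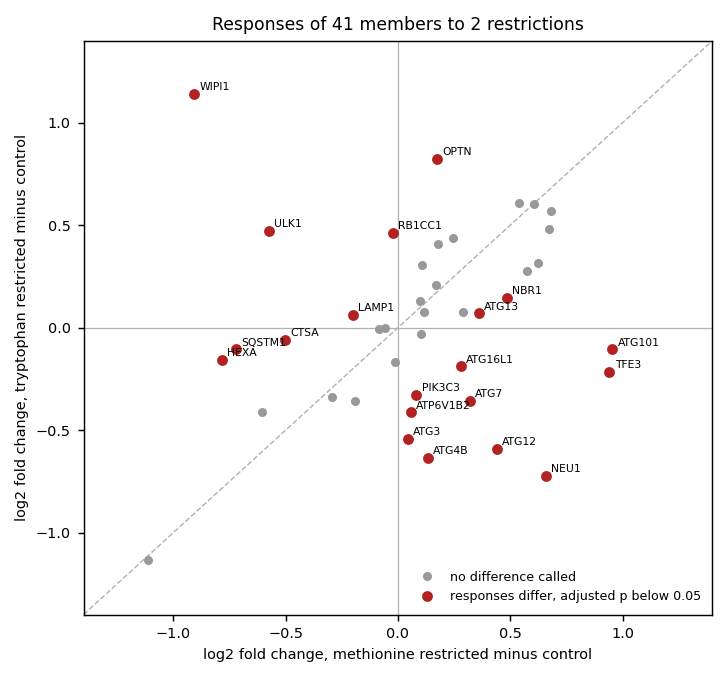
Log2 fold change of the 41 tested genes under methionine restriction (x axis) against that under tryptophan restriction (y axis). Red and named are the 20 genes whose responses differ at an adjusted p below 0.05, grey those where no difference was called, and the dashed line marks equal responses. WIPI1 is at upper left (-0.91 and 1.14) and TFE3, ATG101, ATG12 and NEU1 are at lower right.

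Other genes of the pathway were counted from 4 further lists. Of all genes, 15.6% rose and 12.3% fell under histidine restriction, 27.8% and 25.4% under methionine, 4.11% and 6.09% under phenylalanine, 23.6% and 27.7% under tryptophan, 3.41% and 4.33% under leucine, and 5.13% and 7.36% under valine restriction, against which these counts are to be read. Of 31 tested genes of the autophagy machinery, 15 rose and 3 fell under methionine restriction, 9 rose and 4 fell under histidine restriction, 7 rose and 7 fell under tryptophan restriction, 2 rose and 4 fell under phenylalanine restriction and under valine restriction, and 2 rose and 3 fell under leucine restriction. Under equal totals the split was 16 rises and 3 falls under tryptophan, 6 and 2 under phenylalanine and 4 and 3 under valine restriction. Counts under equal totals, here and in the next paragraph, have another base. There 9687 of all genes were called under tryptophan restriction, 71% of them higher, against 8534 and 45.9% as deposited. The equal-totals values were 9328 and 62.6% under methionine, 2295 and 67% under phenylalanine and 2757 and 63.7% under valine restriction. BNIP3, a mitophagy receptor, averaged 665 ± 68.1 normalised counts in valine-restricted libraries and 2702 ± 664 in their controls (SD, n = 5 against 4, log2 fold change -1.997 with SE 0.16, adjusted p = 1.05e-05). It averaged 937 ± 124 normalised counts in methionine-restricted libraries and 3421 ± 731 in their controls (SD, n = 5 each, log2 fold change -1.85 with SE 0.14, adjusted p = 9.37e-08). BNIP3 also fell under histidine restriction (log2 fold change -1.17 with SE 0.12, adjusted p = 7.99e-06) and phenylalanine restriction (log2 fold change -1.36 with SE 0.11, adjusted p = 1.52e-05). SNAP29, a fusion protein that joins autophagosome and lysosome, rose under methionine restriction (log2 fold change 0.74 with SE 0.07, adjusted p = 9.61e-07) and phenylalanine restriction (log2 fold change 0.52 with SE 0.08, adjusted p = 0.0025), and its partner STX17 rose under histidine restriction (log2 fold change 0.65 with SE 0.07, adjusted p = 1.88e-05).

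Of 30 tested further hydrolases, 2 rose and 6 fell under histidine restriction, 7 and 9 under methionine, 1 and 6 under phenylalanine, 9 and 5 under tryptophan, 2 and 6 under leucine, and 1 and 8 under valine restriction. Under equal totals the split was 9 and 9 under methionine and 16 and 3 under tryptophan restriction. LGMN, an asparaginyl protease, had 630.3 ± 54.0 normalised counts in valine-restricted libraries and 2059.8 ± 473 in their controls (SD, n = 5 against 4, log2 fold change -1.69 with SE 0.15, adjusted p = 2.09e-05), 1191 ± 119 normalised counts in methionine-restricted libraries and 3015 ± 352 in their controls (log2 fold change -1.34 with SE 0.09, adjusted p = 4.27e-08), and fell under histidine restriction (log2 fold change -1.25 with SE 0.14, adjusted p = 2.54e-05) and phenylalanine restriction (log2 fold change -1.12 with SE 0.13, adjusted p = 0.000234). Among 21 further membrane and sorting genes, 4 rose and 2 fell under histidine restriction, 3 and 8 under methionine, 0 and 3 under phenylalanine, 11 and 2 under tryptophan, 0 and 4 under leucine, and 0 and 4 under valine restriction. Under equal totals 6 rose and 6 fell under methionine restriction and 15 rose and 0 fell under tryptophan restriction. Of all called genes, 62.6% were then higher under methionine and 71% under tryptophan restriction. NPC2, which carries cholesterol inside the lysosome, had 180.2 ± 12.8 normalised counts in methionine-restricted libraries and 842 ± 93.3 in their controls (SD, n = 5 each, log2 fold change -2.21 with SE 0.10, adjusted p = 9.53e-10). IGF2R, the receptor that sorts new enzymes to the lysosome, had 6877 ± 197 normalised counts in tryptophan-restricted libraries and 3615 ± 468 in their controls (SD, n = 5 each, log2 fold change 0.94 with SE 0.08, adjusted p = 2.26e-07). Of 13 further V-ATPase subunits, 1 rose and 2 fell under histidine restriction, 6 and 1 under methionine, 3 and 1 under phenylalanine, 1 and 5 under tryptophan, 0 and 2 under leucine, and 2 and 0 under valine restriction. The tryptophan split turned round under equal totals, to 5 rises and 1 fall, and the methionine split was then 9 and 0. In the isoleucine comparison 0 genes of these lists were called.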

How the data were processed

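Bulk mRNA of 59 Jurkat libraries was analysed, grouped by the labels into 7 restricted and 5 control groups. Per the labels, column-purified total RNA entered strand-specific libraries. The authors deposited a table per amino acid of DESeq2-normalised counts, an abundance signal with values at or above 0. Tables were scaled separately, so every test was made within a table. The submitters' processing notes give kallisto 0.50.1 and DESeq2 1.44.0, beside FastQC 0.11.9 and the build GRCh38. No source used here gives the annotation release or the strand setting. Whole reads could not be recovered, since between 45.0% and 81.6% of low values per library were whole multiples of a step within 0.1, so no count model was used. The number of reads behind a library is therefore uncertain, and totals of normalised counts are given in its place. Every column was mapped (0 left out), and 0 library pairs were identical.

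The test was that of limma 3.58.1 (lmFit, eBayes with trend, two-sided, R 4.3.3, data.table package version 1.17.8), made on log2(normalised count + 1) for genes averaging 10 or more in a table. P-values were adjusted by the Benjamini-Hochberg method over every gene so tested. Differences between responses are interaction contrasts. The tests were tried on simulated data first. The members, the further gene lists and the tests were chosen with earlier results of these data known. In each comparison up to 4 rises and 4 falls were named: the largest fold changes among called members whose groups did not overlap and whose higher mean was at least 100. SQSTM1, MAP1LC3B, GABARAPL1, ULK1, TFEB, LAMP1, CTSD and ATP6V1A could be named everywhere, and up to 2 genes per further list by adjusted p. Library values of WIPI1, CTSB and other members outside the rule were added after their values had been seen.

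Sequence sharing is the percentage of 31-base words of a gene's principal GENCODE 29 transcript (GRCh38) found in another gene. Where several transcripts ranked equally, the longest was used. Promoters are RefSeq sequences, and 7 members had none in the table. Replicate numbers were checked for pairing. The correlation of deviations between same-numbered libraries ran from -0.186 to 0.185 over 32 pairs, of which 7 were the best match. In the valine table the 4 pairs lay between 0.036 and 0.185, and 2 were the best match. Such correlations cannot exclude pairing, and the main fits use none. Alternatives changed the pseudocount (0.25 or 5), the filter (none, or an average of 100) or the scaling (equal totals, or the trimmed mean of M values), added the replicate number as a block, or left out single libraries. Library weights and the omission of library pairs were added after seeing the data.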

Additional observations from a re-analysis of the deposited data

Results flagged for a closer look

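Single libraries stood far from the other libraries of their group, by the ratio of their gap to the range, in 9 of 168 groups of a gene and condition. Chance flags about 1 in 20 groups. ATG14 was high in histidine control 1 (301), and without that library the ATG14 fall was no longer called. NEU1 was low in tryptophan control 3 (196) and CTSD was low in tryptophan control 1 (1105), and both calls were kept without them. MAP1LC3B (1666) and TFEB (393) were high in phenylalanine-restricted library 2, in which ribosomal protein mRNA was 0.95 above the rest of its group on the log2 scale. ATP6V1A was low in valine-restricted library 2 (368), where ribosomal protein mRNA was 0.51 above the rest. ULK1 was low in methionine-restricted library 5 (1482) and in valine-restricted library 1 (2707), and MAP1LC3B was low in isoleucine-restricted library 3 (1343).

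Some members were called in opposite directions between amino acids with separate controls. Only those whose difference also passed limma's interaction test are listed here, so passing it was a condition of the list. These were WIPI1, at -2.05 for methionine minus tryptophan, NEU1 at 1.38, ULK1 at -1.05 and ATG12 at 1.03 for the same pair, ATG12 at 0.99 for histidine minus tryptophan, and HEXA at -1.28, SQSTM1 at -1.25 and ATG13 at 0.70 for methionine minus phenylalanine. For other pairs the difference was not tested. WIPI1 rose under tryptophan restriction (log2 fold change 1.14) and fell under leucine (-1.71) and valine restriction (-1.77). CTSB rose under methionine (0.61) and tryptophan restriction (0.60) and fell under valine restriction (-0.55).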

How the results depend on the processing

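The counts of members called kept within 1.5 times their value under every alternative for histidine (11), methionine (23), tryptophan (22) and isoleucine (0), and for the response pairs histidine minus methionine, histidine minus tryptophan, methionine minus phenylalanine and methionine minus tryptophan. For phenylalanine, 4 members as reported became 2 with no filter, 7 under equal totals, 14 with library weights and 10 without control 1 and restricted library 2. For leucine, 3 became 5 with a mean of at least 100 and 9 with library weights. For valine, 5 became 12 with library weights and 2 without BCAA control 4 and restricted library 5. Histidine minus phenylalanine went to 5 under equal totals and 11 with library weights, against 3, and phenylalanine minus tryptophan to 23 with library weights, against 14. All genes called moved the same way in these fits, except for histidine minus phenylalanine under equal totals (1578 against 1589). With library weights they were 4868 against 1736 for phenylalanine, 2699 against 1277 for leucine and 4549 against 2096 for valine. For the pairs they were then 3740 against 1589 for histidine minus phenylalanine and 7256 against 5265 for phenylalanine minus tryptophan. The causes were not tested. With the replicate number as a block the counts were 21 each for methionine and tryptophan and 11 for histidine. They were 7 for valine, 2 for leucine, 0 for phenylalanine and isoleucine, and 1 for histidine minus phenylalanine. All genes called were then 803 for phenylalanine, 834 for leucine and 3067 for valine, against 1736, 1277 and 2096. Whether the replicate numbers pair the samples is not settled. The 4 phenylalanine calls lost with the block were ATG13, HEXA (adjusted p = 0.0619), OPTN and SQSTM1. The leucine call of ATP6V0D1 was lost too. Leaving out a library gave 20 to 23 for methionine, 21 to 24 for tryptophan, 9 to 14 for histidine, 1 to 5 for phenylalanine, 1 to 8 for valine, 1 to 6 for leucine and 0 for isoleucine. For the pairs it gave 10 to 13 for histidine minus methionine, 2 to 5 for histidine minus phenylalanine, 14 to 17 for histidine minus tryptophan, 13 to 16 for methionine minus phenylalanine, 17 to 21 for methionine minus tryptophan and 14 to 20 for phenylalanine minus tryptophan. Named genes that were called, as reported or in the alternative, kept their direction in every setting. Named genes called in neither fit changed sign in 38 of 809 values from fits without a single library. They did so in 7 of 84 values under equal totals. WIPI1 in the tryptophan comparison was not tested where a mean of at least 100 was required. Levels of genes with shared sequence depend on how the quantification divided reads, and mRNA levels do not measure autophagic flux.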
